A study of Mus musculus with 2031 samples.

Results

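Counts of 9 genes that are known for adult hippocampal neural stem cells and their progeny were followed through single cells of mouse cortex and hippocampus: *Hopx*, *Thrsp*, *Lpar1*, *Sox4*, *Sox11*, *Fabp7*, *Tfap2c*, *Eomes* and *Riiad1*. They were picked by name from the 49671 genes of the count table, and all 9 were found in it. The cells came from C57BL/6J mice at postnatal day 56, without transgene or treatment, as 4 cell suspensions: Cortex 1 and Cortex 2, each from 1 mouse of the same litter, and Hippocampus 1 and Hippocampus 2, each pooled from 4 littermates of a litter of its own. Cells positive for ACSA-2, an astrocyte surface antigen encoded by *Atp1b2*, and negative for the oligodendrocyte antigen O1 and a dye for dead cells were sorted singly and sequenced by Smart-seq2, which reads full-length cDNA and carries no molecular tags. Of 2031 cells, 1983 carried one of the authors' cell types, and 1781 of these were astrocytes of subtypes AST1 to AST5. Litter and the number of mice pooled go with region, so the 3 cannot be told apart, and the labels mark no single animal within a hippocampal pool.

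In the adult hippocampus, neural stem cells lie in the subgranular zone of the dentate gyrus. They have a radial process, share many transcripts with astrocytes, are mostly quiescent, and when activated give rise to intermediate progenitors that express *Eomes* and then to neuroblasts and granule neurons. *Hopx* (an atypical homeodomain protein), *Fabp7* (a brain fatty acid binding protein of radial glia), *Lpar1* (a receptor for lysophosphatidic acid, which also occurs in oligodendrocytes) and *Thrsp* (a regulator of lipogenesis) have been used to mark the stem cells themselves. *Tfap2c* and *Eomes* encode transcription factors of progenitors, *Sox4* and *Sox11* encode related transcription factors of newborn neurons, and *Riiad1* encodes a small protein with a domain of the kind found in regulatory subunits of protein kinase A.

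The 89 hippocampal AST4 cells, 41 of Hippocampus 1 and 48 of Hippocampus 2, were the cells in which most of these genes stood highest. Only 2 further AST4 cells came from cortex, both from Cortex 1. Astrocyte genes were present in AST4: each of the 91 cells had at least 10 counts of 2 or more of 7 astrocyte markers, which summed to between 16881 and 18570 CPM (counts per 1000000 gene counts) over the suspensions. Most of this was *Slc1a3* (12714 CPM), which the paper takes as a general marker of astrocytes and stem cells alike. The other markers stood lower than in AST1, where the sum was 24195 to 27907 CPM. *S100b* was found in 7.69% of AST4 and 65.1% of AST1 cells, and *Aldh1l1* in 15.4% and 64.2%. Total gene counts ran from 600758 to 3238215 per cell over all cells (median 1458411). The median depth was 1405690 in AST4, 1431483 in AST1 and 1659866 in AST3, and the median number of genes found was 2562, 1992 and 2440.5, so AST4 cells held more genes than AST1 cells at a like depth. The AST3 value pools both regions. In Hippocampus 1 and 2, AST3 cells held medians of 2051 and 2112 genes, against 2396 and 2592.5 in AST4. AST4 cells thus held more genes than hippocampal AST3 cells as well. The part of that in the shares below was not tested.

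Letters upstream of the transcription starts were read for the members whose AST4 sums were called higher below, *Hopx*, *Thrsp* and *Fabp7*. RefSeq promoters (GRCm38.p6) were given for 7 of the 9 members, with 10 starts in all, and the 250 bases before the start are shown 5′ to 3′ in the direction of the gene. *Hopx* has 2 starts. RefSeq and GENCODE place some starts differently: within the GENCODE bounds of the gene given further on lie 180 of the 250 bases for *Thrsp*, with both CCAAT boxes, 42 for *Fabp7* and all of the window at the second *Hopx* start. Capitals mark the CCAAT box, as CCAAT or its reverse complement ATTGG:
Hopx, chr5:77115124-77115373, minus strand: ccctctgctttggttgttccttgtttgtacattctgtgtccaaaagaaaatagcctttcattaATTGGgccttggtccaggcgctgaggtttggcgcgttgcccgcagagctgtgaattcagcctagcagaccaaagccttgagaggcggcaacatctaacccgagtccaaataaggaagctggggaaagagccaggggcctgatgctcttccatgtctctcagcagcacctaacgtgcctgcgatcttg
Hopx, chr5:77095268-77095517, minus strand: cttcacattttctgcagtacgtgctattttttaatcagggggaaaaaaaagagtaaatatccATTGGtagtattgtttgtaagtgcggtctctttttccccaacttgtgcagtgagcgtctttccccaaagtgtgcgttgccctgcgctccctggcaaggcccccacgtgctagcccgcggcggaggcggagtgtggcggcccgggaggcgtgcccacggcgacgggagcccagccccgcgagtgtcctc
Thrsp, chr7:97417551-97417800, minus strand: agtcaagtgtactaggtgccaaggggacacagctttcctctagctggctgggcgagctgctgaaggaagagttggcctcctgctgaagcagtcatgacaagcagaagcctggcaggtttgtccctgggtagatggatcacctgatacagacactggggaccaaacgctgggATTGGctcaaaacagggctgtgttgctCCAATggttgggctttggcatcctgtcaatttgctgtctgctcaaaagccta
Fabp7, chr10:57784673-57784922, plus strand: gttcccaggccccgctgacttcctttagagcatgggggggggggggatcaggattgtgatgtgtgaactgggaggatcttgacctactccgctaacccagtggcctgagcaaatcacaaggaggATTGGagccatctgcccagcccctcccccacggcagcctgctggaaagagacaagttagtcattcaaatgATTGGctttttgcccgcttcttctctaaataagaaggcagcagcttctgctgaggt
Each of these 4 windows held the CCAAT box, and those of *Thrsp* and *Fabp7* held it at 2 places, against 33.8% of all 32851 RefSeq windows of that length with at least 1. On both strands, none of the 4 windows held GTGGGAA (the letters searched for RBPJ, the Notch effector; 5.42% of all windows), CAGCTG (an E-box; 13% of all windows), ACAATG (SOX factors; 10.7%), the palindromic NFI motif (0.0365%) or TATAAA (the TATA box; 12.4%). The CCAAT box was not particular to these members: it stood at 4 places before *Sox4*, 2 before *Eomes*, 1 before *Sox11* and 1 before 1 of the 3 starts of *Lpar1*. Among the other members, CAGCTG stood once each before *Sox4* and *Sox11*, and ACAATG once before 1 of the 3 starts of *Lpar1*. A match describes letters only.

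*Hopx*, *Thrsp* and *Fabp7* were widespread in astrocytes and highest in AST4. *Hopx* (chr5:77086988-77115121, minus strand; positions are of GRCm38 with the GENCODE M21 annotation) had at least 1 count in 87.8% of AST4 cells of Hippocampus 1 and 77.1% of Hippocampus 2. Over all suspensions it was found in 47.3% of AST1, 33.4% of AST3, 26.9% of AST5 and 16.2% of AST2 cells. The regions differ in their part of each subtype: in AST1 the shares were 40.4% and 27.3% in Cortex 1 and 2 and 45.8% and 54.4% in Hippocampus 1 and 2, and in AST3 34.4%, 35.1%, 27.7% and 32.9%, so AST1 was above AST3 in both hippocampal suspensions and in Cortex 1 but below it in Cortex 2. Among the other types it was found in 1 of 30 endothelial cells (3.33%) and in 2.22% of 135 mural cells, the contractile cells of vessel walls, and it had no count in 17 neuronal and 9 oligodendrocytic cells, which allows shares of up to 17.6% and 33.3% (3 cells of the total, the limit used throughout for a count of 0). *Thrsp* (chr7:97412938-97417730, minus strand) was found in 92.7% and 85.4% of AST4 cells, and in 65.3% of AST1, 66.8% of AST2, 65.7% of AST3 and 61.5% of AST5 cells. By suspension these shares ran from 54.4% to 68.6% in AST1, 59.1% to 80% in AST2 and 61.5% to 69.5% in AST3, and in AST1 both hippocampal shares were above both cortical ones. It also had counts in 9 of 17 neuronal cells (52.9%, Wilson 95% interval 31 to 73.8%), with a median of 633 counts where found, and in 1 of 135 mural cells. All 7 astrocyte markers had counts in some of these neuronal cells, from 0.0337 to 22.9 CPM in sum, against 235.2 CPM of *Thrsp*. The highest were *S100b* (22.9 CPM, 23.5% of cells) and *Slc1a2*, a glutamate transporter (8.65 CPM, 47.1%), which stood at 229.3 and 5472 CPM in AST1. Their part in the *Thrsp* counts was not tested. *Fabp7* (chr10:57784881-57788450, plus strand) was found in 87.8% and 87.5% of AST4 cells, in 77.4% of AST3, 57.7% of AST5, 49.2% of AST1 and 44.9% of AST2 cells, and in 1.48% of mural cells.

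**Figure D1:**
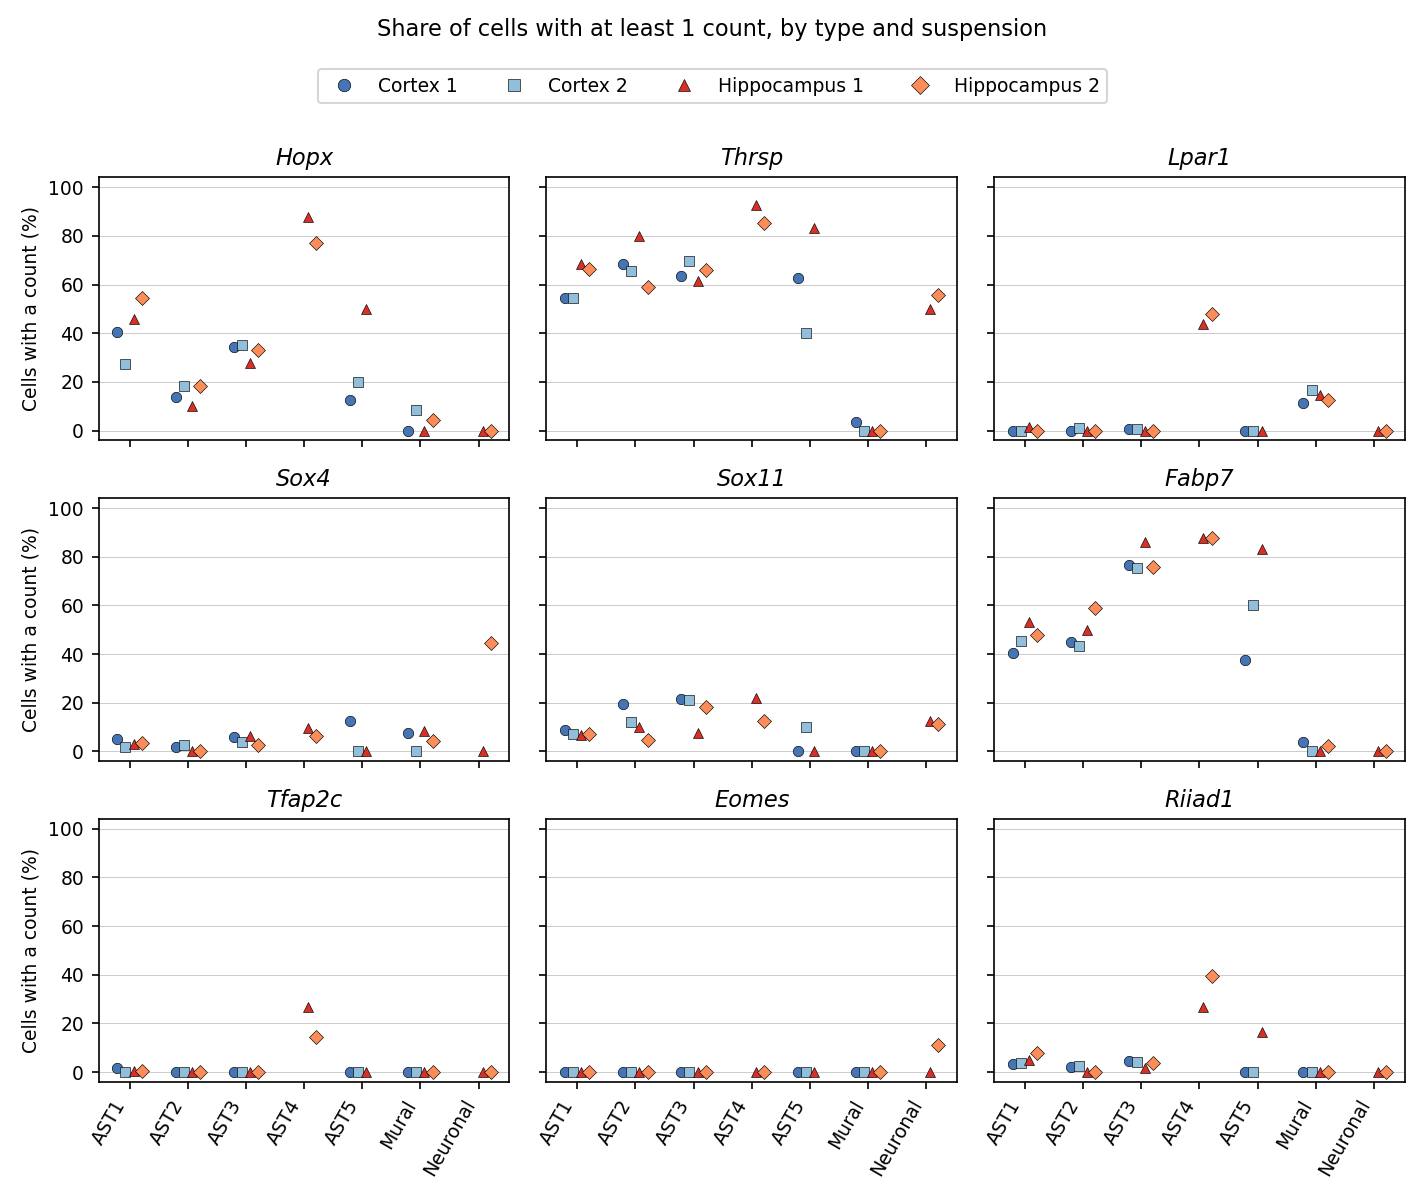
Percentage of cells with at least 1 count (vertical axis) for each of the 9 genes, by cell type (horizontal axis); each point is 1 suspension with at least 5 cells of the type. *Lpar1* and *Tfap2c* stood near 0 in all astrocytes but AST4, where they reached 47.9% and 26.8%, whereas *Thrsp* and *Fabp7* were found widely in every astrocyte subtype.

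*Lpar1*, *Tfap2c* and *Riiad1* were the members with the steepest difference in share. *Lpar1* (chr4:58435255-58553898, minus strand) was found in 18 of 41 AST4 cells of Hippocampus 1 (43.9%) and in 23 of 48 of Hippocampus 2 (47.9%). In AST1 it was found in 4 of 657 cells, all of Hippocampus 1, with 7 counts in sum, and no count was seen in the 65 and 82 hippocampal AST3 cells. *Tfap2c* (chr2:172549593-172558622, plus strand) was found in 11 of 41 and 7 of 48 AST4 cells (26.8% and 14.6%), in 3 AST1 cells, and in none of 555 AST2, 452 AST3 and 26 AST5 cells, which allows shares of up to 0.541%, 0.664% and 11.5%. *Riiad1* (chr3:94464983-94480341, minus strand) was found in 11 of 41 and 19 of 48 AST4 cells (26.8% and 39.6%), against 5.8% of AST1, 3.8% of AST3 and 2.2% of AST2 cells. *Lpar1* cells came from 6 of 8 plates of Hippocampus 1 and 7 of 8 of Hippocampus 2, *Tfap2c* cells from 6 and 5, and *Riiad1* cells from 7 and 8, so no single plate supplied them.

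The neuronal members did not follow that pattern. *Sox4* (chr13:28948919-28953713, minus strand) was found in 7.69% of AST4 cells (7 of 91; Wilson 95% interval 3.78 to 15.0%), against 4.6% of AST3, 3.2% of AST1 and 2.0% of AST2 cells, and in 4 of 17 neuronal cells. At 10 counts or more, *Sox4* was found in 4.88% and 4.17% of AST4 cells of Hippocampus 1 and 2. The AST3 shares there were 6.15% and 2.44%. A median of 14 counts in the AST4 cells that had it was low beside 83 in the neuronal cells. On the annotation, 2616 of its 4795 exonic bases are shared with a noncoding gene on the other strand, whose count was 0 in hippocampal AST1, AST3 and AST4. Reads that fall on 2 genes can be left uncounted, so the level of *Sox4* is uncertain. *Sox11* (chr12:27334264-27342574, minus strand) was found in 22% and 12.5% of AST4 cells, which overlapped AST3, where the 4 suspensions ran from 7.69% to 21.4%. *Eomes* (chr9:118478212-118486132, plus strand) had no count in any of 1781 typed astrocytes. In the 91 AST4 cells, 0 cells allow a share of up to 3.30%. It was found in 1 neuronal cell of Hippocampus 2, with 300 counts, and that cell also had 12 counts of *Sox4*, 16 of *Thrsp* and none of the other 6 members.

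The levels were then read in counts summed over the cells of a subtype in a suspension, scaled to CPM with the normalization factors of edgeR. Sums of at least 20 cells were made for AST1, AST2 and AST3 of cortex and AST1, AST3 and AST4 of hippocampus, 2 suspensions each, and 18859 genes passed the low-count filter. *Eomes* did not pass it, which leaves 8 members. For AST4 the question was whether the genes of stem cells stand above the level of the other hippocampal astrocytes, taken as the mean of AST1 and AST3. The authors drew the subtypes from these same counts, and *Lpar1*, *Fabp7*, *Thrsp* and *Hopx* stand in the study's own list of AST4 genes, so the adjusted p values of this comparison order the genes and are no independent evidence that they mark AST4. A sum does not tell more cells with a gene apart from more RNA per cell, so both are given further on.

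*Hopx* reached 97.5 and 82.6 CPM in the 2 AST4 sums, 45.99 and 48.9 in hippocampal AST1, 19.5 and 27.3 in hippocampal AST3, 28.7 and 30.3 in cortical AST1, 18.4 and 19.6 in cortical AST3 and 8.29 and 13.4 in cortical AST2. No sum of another subtype reached the AST4 values, hippocampal AST1 was next, and AST2 was lowest without overlap with any other group. The fitted log2 fold change of AST4 was 1.43 ± 0.28 (standard error; adjusted p = 0.0216, edgeR quasi-likelihood test). The call was fragile: the adjusted p was 0.0663 with the suspension as a block in the fit, 0.0502 without the low-count filter and 0.520 with sums of at least 5 cells, and leaving out any 1 of the 4 suspensions ended the call, with log2 fold changes between 1.16 and 1.70. The gene *Hopxos* on the other strand shares 412 of the 1516 exonic bases of *Hopx* and was found in 25.8% of AST4, 2.39% of AST1 and none of the AST3 cells of hippocampus. The library does not keep strand, so reads on the shared bases cannot be assigned to either gene.

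*Thrsp* reached 1302 and 1771 CPM in AST4, 772 and 710 in hippocampal AST1, 396 and 370.7 in hippocampal AST3, 319.02 and 328.7 in cortical AST1, 386 and 362.7 in cortical AST3 and 447 and 455 in cortical AST2. AST4 again stood above all other sums, and hippocampal AST1 above the rest. The log2 fold change of AST4 was 1.53 ± 0.11 (adjusted p = 0.000158, edgeR), and the call held in all alternatives run. *Fabp7* reached 590 and 846 CPM in AST4, 384 and 380 in hippocampal AST3, 229.4 and 194.3 in hippocampal AST1, 267.5 and 226.2 in cortical AST3, 175.7 and 185.7 in cortical AST1 and 130 and 123.9 in cortical AST2. Here AST3 and not AST1 came next to AST4. The log2 fold change was 1.34 ± 0.15 (adjusted p = 0.00151, edgeR), and the call held in all alternatives run. Of the 8 members tested, these 3 were called higher in AST4 and none lower. Over all 18859 genes, 1.26% were called higher and 4.09% lower.

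The other 5 members missed the threshold. *Lpar1* reached 179.1 and 207.9 CPM in AST4, 0.0178 and 0 in hippocampal AST1, 0 in both hippocampal AST3 sums, 0 in both cortical AST1 sums, 0 and 4.08 in cortical AST2 and 3.77 and 0.00380 in cortical AST3. The AST4 sums stood far above those of hippocampal AST3, yet the test gave an adjusted p of 0.0907 (edgeR). No lower bound on the fold is given. Reads carry no molecular tags, and 1 positive cell can hold as many as the 978 counts named below, so a sum at 0 sets no firm floor. A fitted fold change against sums at 0 has no size and is not given. The call appeared when either cortical suspension was left out (adjusted p = 0.0209 and 0.0206) and with DESeq2 (3.78e-07). The higher cortical values came from single cells: 3 AST2 cells of Cortex 2 and 1 AST3 cell of Cortex 1 had 64, 637, 1005 and 978 counts, and 2 of the 4 had markers of another cell type at the limits used here. *Tfap2c* reached 51.1 and 19.5 CPM in AST4, 0.00254 and 0.402 in hippocampal AST1, 3.37 and 0 in cortical AST1, and 0 in the other 6 sums. The test of AST4 gave *Tfap2c* an adjusted p of 0.179 (edgeR), and no bound on its fold against hippocampal AST3 is given. Of the 145 counts in hippocampal AST1, 1 was in a cell of Hippocampus 1 and the rest in 1 cell of Hippocampus 2, where the mean CPM per cell was 59.7 times as high in AST4. With so few AST1 cells no fold over both suspensions is given. *Riiad1* reached 30.3 and 31.3 CPM in AST4 and between 0.586 and 5.57 in the other 10 sums, with a log2 fold change of 3.19 ± 0.91 (adjusted p = 0.0980). *Riiad1* shares 74 of 813 exonic bases with *Celf3* on the other strand, which was found in 2.25% of hippocampal AST4 cells.

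*Sox11* reached 98.2 and 73.5 CPM in AST4, 14.04 and 95.2 in hippocampal AST3, 18.5 and 30.98 in hippocampal AST1, 103.3 and 60.1 in cortical AST3, 84.9 and 47.6 in cortical AST2 and 17.9 and 45.8 in cortical AST1. The groups overlapped widely, and the 2 hippocampal AST3 sums differed by more than any 2 group means. Its log2 fold change in AST4 was 1.22 ± 0.69 (adjusted p = 0.398, edgeR). *Sox4* reached 2.72 and 0.489 CPM in AST4, the lowest group mean, and between 1.26 and 19.5 CPM in the other sums (log2 fold change -1.64 ± 1.47, adjusted p = 0.618). Its highest sum, cortical AST1 of Cortex 1, stood beside the lowest of the other subtypes, cortical AST1 of Cortex 2, so 1 suspension set that group mean.

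**Figure D2:**
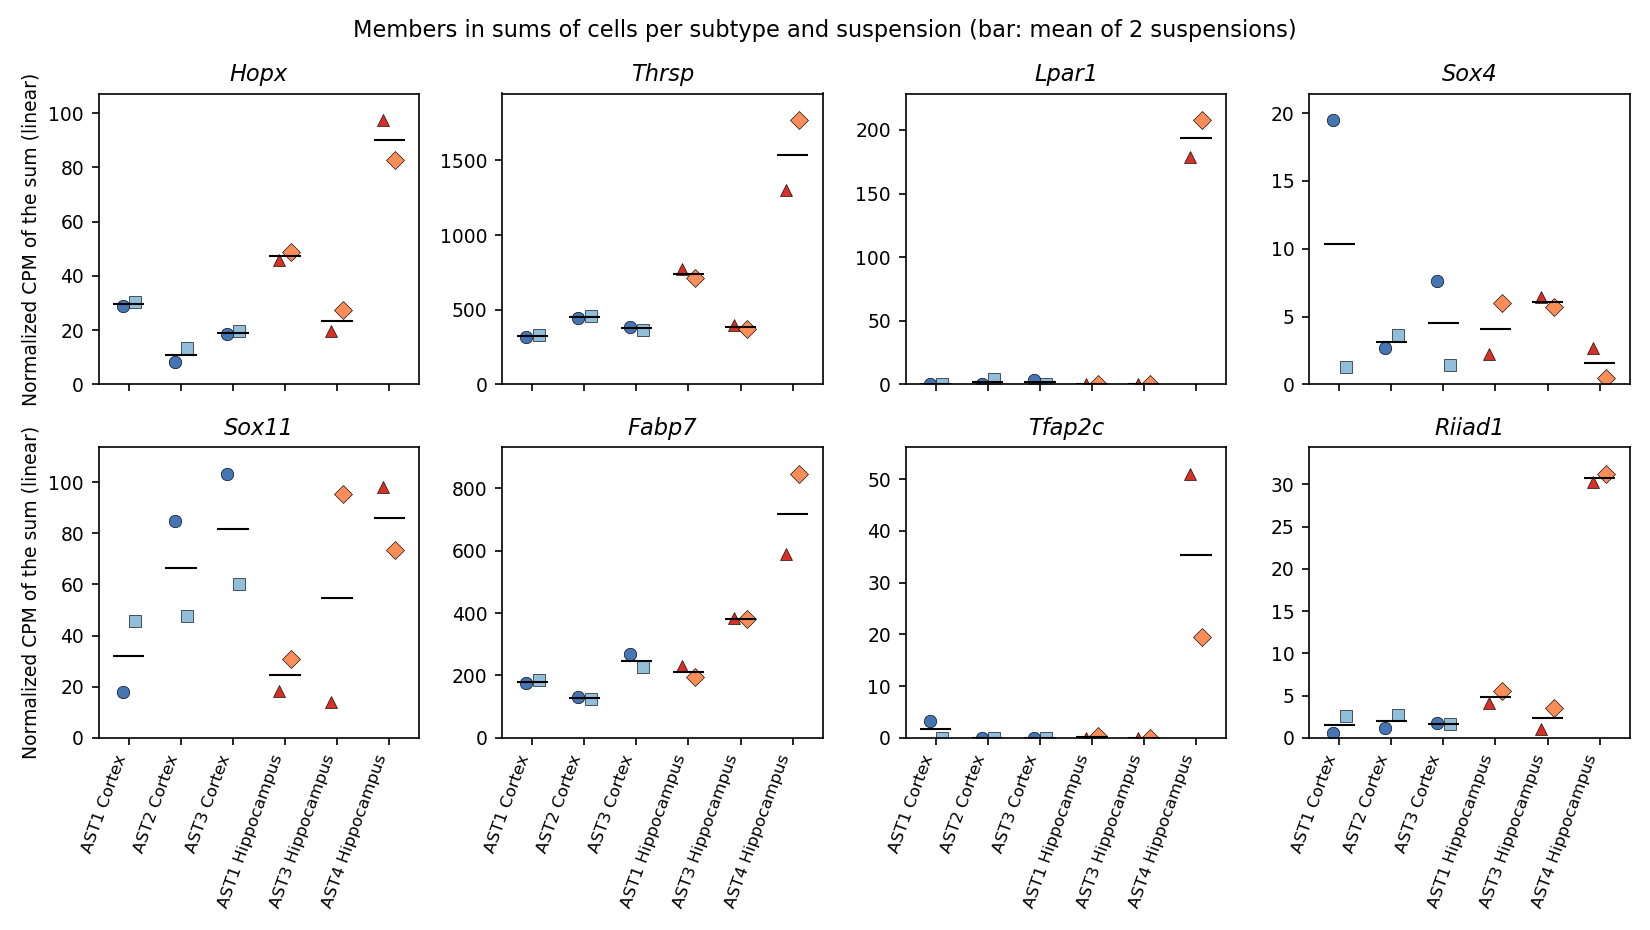
Normalized CPM (vertical axes, linear, each from 0) of 8 members in sums of cells by subtype and region (horizontal axis); points are suspensions, with blue circles for Cortex 1, light blue squares for Cortex 2, red triangles for Hippocampus 1 and orange diamonds for Hippocampus 2, and bars are means of 2 suspensions. Both AST4 points lay above all other points for *Hopx*, *Thrsp*, *Fabp7*, *Lpar1*, *Tfap2c* and *Riiad1*, among the other points for *Sox11*, and among and below them for *Sox4*. The share of all genes with both AST4 points on top was not counted, and the subtypes were drawn from these counts. The number of members on top is therefore a description only.

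The AST4 sums were raised by more cells and by more counts per cell in different proportion. A share has an upper bound and a level has none. A member found in most AST1 or AST3 cells thus has little room for a higher share. *Thrsp* was found in 68.6% and 66.4% of AST1 cells and *Fabp7* in 86.2% and 75.6% of AST3 cells of Hippocampus 1 and 2. Which ratio below is larger therefore depends in part on the starting share. The levels below are CPM without the edgeR factors. With them, summed *Thrsp* in Hippocampus 1 goes from 1568 to 1302 CPM in AST4 and from 720 to 772 in AST1. Scaled level ratios are thus smaller, which can turn the order of share and level for *Thrsp* and *Fabp7* against AST1 in Hippocampus 1. For *Hopx*, the share of cells was 1.92 and 1.42 times that of AST1 in Hippocampus 1 and 2, and the mean CPM of cells with a count was 1.44 and 1.65 times as high. Against AST3 its share was 3.17 and 2.34 times and its level where found 1.97 and 1.86 times as high, so there the share differed more in both suspensions. For *Thrsp*, the shares were 1.35 and 1.29 times those of AST1 and the levels where found 1.70 and 2.44 times. Against AST3 they were 1.51 and 1.30 times and 2.95 and 4.32 times, so on unscaled CPM the level differed more than the share against both subtypes. For *Fabp7*, the share was 1.65 and 1.83 times that of AST1 and 1.02 and 1.16 times that of AST3, and the level where found was 1.98 and 2.96 times that of AST1 and 1.87 and 2.53 times that of AST3. Here too the level differed more on unscaled CPM. For *Riiad1*, the share was 5.59 and 5.16 times that of AST1 and the level where found 1.52 and 1.44 times, and against AST3 17.4 and 10.8 times and 1.55 and 0.877 times, so the share differed more. The ratios against AST3 rest on only 1 of 65 and 3 of 82 AST3 cells with a count. *Lpar1* in AST4 was a gene of high level in the cells that had it, with medians of 539 and 602 CPM, while the 4 AST1 cells with *Lpar1* had a median of 0.839 CPM. *Tfap2c* was high in the cells of Hippocampus 1 that had it (median 278.5 CPM) and lower in Hippocampus 2 (24.4 CPM).

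Since *Lpar1* also marks oligodendrocytes, it was set beside their genes. All 9 oligodendrocytic cells had *Lpar1*, at 763 CPM in sum, and the 41 AST4 cells with *Lpar1* held 566 CPM. In oligodendrocytic cells the myelin gene *Mbp* stood at 11758 CPM and *Mobp* at 4089 CPM. In the AST4 cells with *Lpar1*, *Mbp* stood at 23.8 CPM, *Mobp* at 16.8 CPM and *Ermn* at 2.94 CPM, and *Mog* and *Mag* were at 0. In the 48 AST4 cells without *Lpar1* these were lower or equal: *Mbp* stood at 10.7 CPM and the other 4 at 0. *Cnp* was the oligodendrocyte marker found most in AST4, and it went the other way. It stood lower in the cells with *Lpar1* (120 CPM, 19.5% of cells) than in the 48 cells without (215.5 CPM, 52.1%). *Cnp* was also found in 54.8% of AST1 and 66.8% of AST3 cells. Oligodendrocyte precursor markers summed to 42.5 CPM with *Lpar1* and 166.2 CPM without. Mural markers summed to 582 CPM with *Lpar1* and 89.8 CPM without. With and without *Lpar1*, *Vtn* stood at 388 CPM (6 of 41 cells) and 0.0259 CPM (2 of 48). *Acta2* stood at 100 CPM, from 1 cell, and at 0. *Pdgfrb* stood at 56.1 and 31.7 CPM and *Rgs5* at 37.7 and 58.1 CPM. *Kcnj8*, a mural channel found in 92.5% of mural cells, was at 0 in both. Ependymal markers summed to 150.8 CPM with *Lpar1*, in 8 of 41 cells, and 5.85 CPM without, in 3 of 48, and neuron markers to 62.8 and 20.2 CPM. Over all 91 AST4 cells, the ependymal *Ccdc153* (26.8 CPM) and *Tmem212* (14.8 CPM) were each found in 1 cell, and *Rarres2* (19.4 CPM) in 10. The part of all these markers in the *Lpar1* counts was not tested. *Lpar1* itself was found in 13.3% of 135 mural cells. Without the AST4 cells that had at least 10 counts of 2 or more markers of one other cell type, *Lpar1* was found in 41% of 39 and 47.6% of 42 cells, close to the shares over all AST4 cells.

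**Figure D3:**
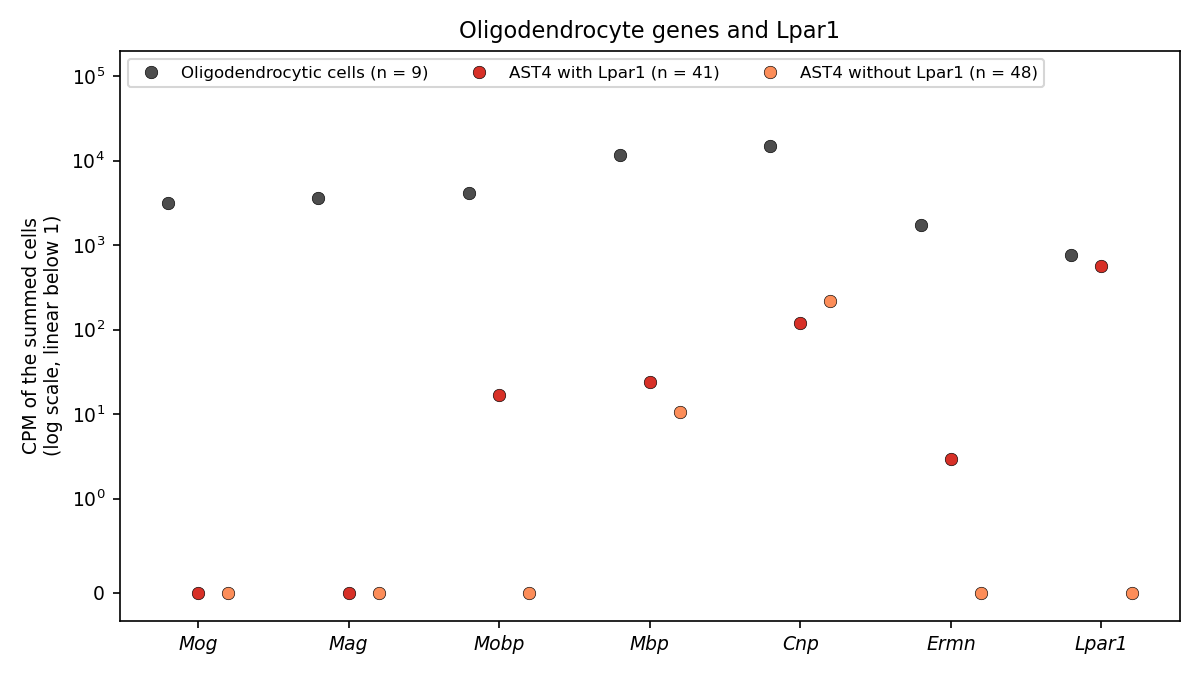
CPM of summed cells (vertical axis, log scale, linear below 1) for oligodendrocyte genes and *Lpar1* in oligodendrocytic cells and in hippocampal AST4 cells with and without *Lpar1*. *Lpar1* was at 763 CPM in oligodendrocytic cells and 566 CPM in AST4 cells with it, whereas *Mbp* was at 11758 and 23.8 CPM.

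A single AST4 cell held several members at once. Of the 9 members, 3.84 ± 0.19 (SD, n = 2 suspensions) were found per hippocampal AST4 cell: 3.98 in Hippocampus 1 and 3.71 in Hippocampus 2. Over both regions, AST3 held 2.02 ± 0.087 (n = 4 suspensions), AST1 1.66 ± 0.23 (n = 4), AST2 1.47 ± 0.045 (n = 4) and mural cells 0.243 ± 0.014 (n = 4). In Hippocampus 1 and 2 alone, AST3 held 1.91 and 1.99 and AST1 1.84 and 1.87. The 6 AST5 cells of Hippocampus 1 held 2.33. No AST4 cell lacked all members. Of the 89, 3 had 1 member, 11 had 2, 19 had 3, 26 had 4, 27 had 5, 2 had 6 and 1 had 8. The subtypes were drawn from these counts, so no test is given. Over the AST4 cells of each suspension, the number of members went with the number of genes found (Spearman's rho 0.295 over 41 cells and 0.329 over 48 cells), and less with depth (0.205 and -0.0527); the cells share a suspension and these values are descriptions. *Hopx*, *Thrsp* and *Fabp7* were found together in 30 of 41 and 32 of 48 AST4 cells, or 69.7% of all 89, against 20% of 545 hippocampal AST1 cells and 16.3% of the hippocampal AST3 cells. All 4 genes most used to mark the stem cells, *Hopx*, *Thrsp*, *Fabp7* and *Lpar1*, were found in 29 of the 89 (32.6%).

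For each of the 36 pairs, the number of AST4 cells with both members was set beside the number given by the product of the single shares in that suspension. *Eomes* gave 8 pairs without any cell. Of the other 28, 14 pairs were found together more often than that product in both suspensions and 4 less often in both. Each of the 14 exceeded the product by less than 1 cell in at least 1 suspension. *Hopx* and *Sox11*, for example, shared 8 cells against 7.90 in Hippocampus 1. Some pairs in hippocampal AST1 cells, such as *Hopx* with *Thrsp* and *Fabp7* with *Riiad1*, also exceeded it in both suspensions, and others did not. The tally of 14 and 4 is thus a description and does not show pairing particular to AST4. In AST4, the common members lay close to the product: *Thrsp* and *Fabp7* shared 72 cells against 69.2, *Hopx* and *Fabp7* 67 against 63.98 and *Hopx* and *Thrsp* 67 against 65.0. *Hopx* and *Lpar1* shared 34 cells against 33.5. *Lpar1* stood apart from 2 of the transcription factors. It shared 3 cells with *Sox11* against 6.83 (1 against 3.95 in Hippocampus 1 and 2 against 2.88 in Hippocampus 2) and 5 cells with *Tfap2c* against 8.18 (3 against 4.83 and 2 against 3.35). *Sox11* and *Tfap2c* shared 5 cells against 3.29, but the suspensions went opposite ways, with 2 against 2.41 and 3 against 0.875. At least 1 of *Lpar1*, *Sox11* and *Tfap2c* was found in 62 of the 89 cells and 2 or more in 11. The pairs among *Lpar1*, *Sox11* and *Tfap2c* rest on 3 to 5 cells each, and no test was made.

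**Figure D4:**
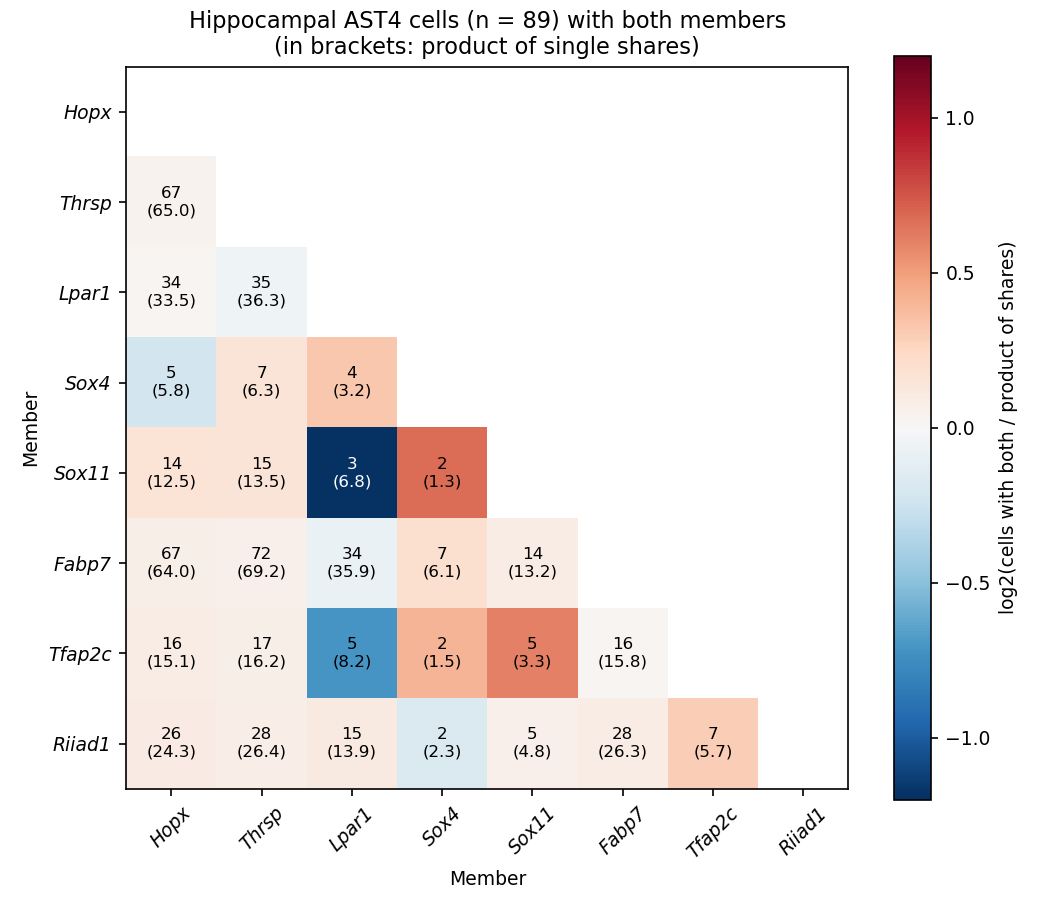
Number of the 89 hippocampal AST4 cells with both members of a pair (top of each square) and the number given by the product of the single shares (in brackets); color shows the log2 of their ratio, red for more and blue for fewer. *Lpar1* with *Sox11* (3 against 6.8) and *Lpar1* with *Tfap2c* (5 against 8.2) are the bluest squares, and the pairs among *Hopx*, *Thrsp* and *Fabp7* are near white.

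The 2 cortical AST4 cells carried few members. One had 430 counts of *Thrsp* and fewer of *Fabp7*, the other 2416 of *Fabp7* and 135 of *Riiad1*, and neither had *Hopx*, *Lpar1* or *Tfap2c*.

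Region was then compared within AST1 and within AST3, the subtypes with enough cells in both regions. In AST1, no member passed the threshold in edgeR, against 0.0053% of all genes (1 of 18859) in either direction. At an unadjusted p under 0.05 it was 1 member, against 7.19% of all genes, and with DESeq2 2 members, against 11.3%. *Thrsp* came closest, with 319.02 and 328.7 CPM in cortex and 772 and 710 in hippocampus and no overlap (log2 fold change 1.19 ± 0.14, adjusted p = 0.0584, edgeR). It passed with each cell thinned to 500000 counts (0.0413), without the low-count filter (0.0471) and with DESeq2 (7.49e-13), and missed in the other alternatives, where the adjusted p ran up to 0.746. *Hopx* in AST1 gave a log2 fold change of 0.69 ± 0.34 (adjusted p = 0.699), with 28.7 and 30.3 CPM in cortex and 45.99 and 48.9 in hippocampus. In AST3, again no member passed in edgeR, against 0.117% of all genes (1 at an unadjusted p under 0.05, against 5.91%, and 2 with DESeq2, against 9.05%). *Fabp7* was at 267.5 and 226.2 CPM in cortex and 384 and 380 in hippocampus, with a log2 fold change of 0.63 ± 0.18 and an adjusted p of 0.555, and *Thrsp* was at 386 and 362.7 against 396 and 370.7 CPM (0.03 ± 0.14, adjusted p = 1). The region difference of *Thrsp* in AST3 less that in AST1 was -1.16 ± 0.19 (adjusted p = 0.149, edgeR; 7.47e-06 with DESeq2). No member passed that test of the difference in edgeR, against 0.0106% of all genes (1 at an unadjusted p under 0.05, against 8.26%, and 2 with DESeq2, against 11.3%), so a region difference of *Thrsp* particular to AST1 was not shown by that test. In cortex, AST2 was set against AST1 and AST3, and no member passed in edgeR, against 0.0689% of all genes (3 at an unadjusted p under 0.05, against 7.04%, and 4 with DESeq2, against 9.03%). There, *Hopx* gave a log2 fold change of -1.13 ± 0.30 (adjusted p = 0.421) and *Fabp7* -0.74 ± 0.16 (0.256), with both AST2 sums below all cortical sums of AST1 and AST3 for each gene, and *Thrsp* gave 0.37 ± 0.12 (0.565). The common biological coefficient of variation of the fit was 1.19, with 6 residual degrees of freedom.

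Lists of related genes were read in the same comparison of AST4. Of 24 genes of radial glia-like stem cells, all were tested, 6 were called higher in AST4 and 2 lower, with a median log2 fold change of 0.54 against -0.097 over all genes, of which 1.26% were called higher and 4.09% lower, the shares against which the counts of all 5 lists are to be read. *Sfrp1*, a secreted Wnt modulator, was at 71.4 and 72.2 CPM in AST4, 2.23 and 4.20 in hippocampal AST1 and 0 in AST3 (adjusted p = 0.000374). *Notch2*, a Notch receptor, was at 795 and 771 CPM against 305.4 and 368.5 in AST1 and 238.1 and 195.6 in AST3 (adjusted p = 0.000942), and *Vim*, an intermediate filament, at 336.2 and 348.3 CPM against 94.0 and 86.8 and 24.3 and 26.3 (adjusted p = 0.00242). *Vcam1*, an adhesion molecule, was lower, at 242.98 and 256.4 CPM against 629 and 720 and 1006 and 814 (adjusted p = 0.000547).

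Of 23 genes of intermediate progenitors and neuroblasts, 14 passed the filter, 6 were called higher and none lower, with a median of 3.24 over the 14, in which genes at 0 in AST1 and AST3 weigh. *Tubb3* and *Neurog2* were among the genes at 0 in the hippocampal AST1 and AST3 sums. Such genes can pass the low-count filter through AST4 alone and could only come out higher. The lack of lower calls therefore says little, here and among the cell cycle genes. *Ccnd2*, a D-type cyclin, was at 360 and 215.6 CPM in AST4, 47.7 and 53.3 in AST1 and 60.8 and 53.1 in AST3 (adjusted p = 0.000961), and *Gadd45g*, a stress and growth arrest gene, at 273.7 and 232.98 CPM against 110.7 and 119.3 and 144.1 and 118 (adjusted p = 0.00775). *Elavl4*, a neuronal RNA binding protein, was found in 6.74% and *Tubb3*, a neuronal tubulin, in 2.25% of AST4 cells, so that those calls (adjusted p = 0.00717 and 0.0138) rest on a few cells. 8 of the 23 had no count in any hippocampal AST4 cell, as was the case for *Eomes*; *Dcx*, the microtubule protein of neuroblasts, was among them and is named after its values were seen. Of 24 cell cycle genes, 22 were tested and 1 was called, higher: *Ccna2*, a cyclin of S phase, found in 4.49% of AST4 cells (64.8 and 18.5 CPM, adjusted p = 0.0304). Their median log2 fold change of 7.20 was made by sums at 0 in AST1 and AST3 and has no size.

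Of 15 relatives and partners of the members, 11 were tested, 2 were called lower and none higher (4.09% and 1.26% over all genes), with a median log2 fold change of -0.87. *Mid1ip1*, the paralog of *Thrsp*, was at 297.05 and 280.03 CPM in AST4, 469 and 437 in AST1 and 640 and 595 in AST3 (log2 fold change -0.87 ± 0.09, adjusted p = 0.000771), and *Fabp5*, a relative of *Fabp7*, at 130.6 and 175.2 CPM against 337.4 and 329.8 and 309.5 and 274.4 (-1.03 ± 0.20, adjusted p = 0.0238). Both fell while the member each is related to was called higher. Of 12 genes of mature astrocytes, 11 were called lower and none higher, with a median of -2.44, among them *Gja1*, a connexin (1151 and 1312 CPM in AST4, 8500 and 8500 in AST1, 8973 and 8573 in AST3; adjusted p = 4e-06), *Aqp4*, a water channel (173.02 and 202.9 CPM, 2012 and 1834, 1656 and 1663; adjusted p = 7e-06), *Glul*, glutamine synthetase (168 and 180 CPM, 1140 and 1132, 1130 and 1150; adjusted p = 1.3e-05) and *Atp1b2*, the gene of the antigen used to sort the cells (1697 and 1470 CPM, 5372 and 5593, 5581 and 5919; adjusted p = 8e-06). *Atp1b2* was still found in 97.8% of AST4 cells.

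**Figure D5:**
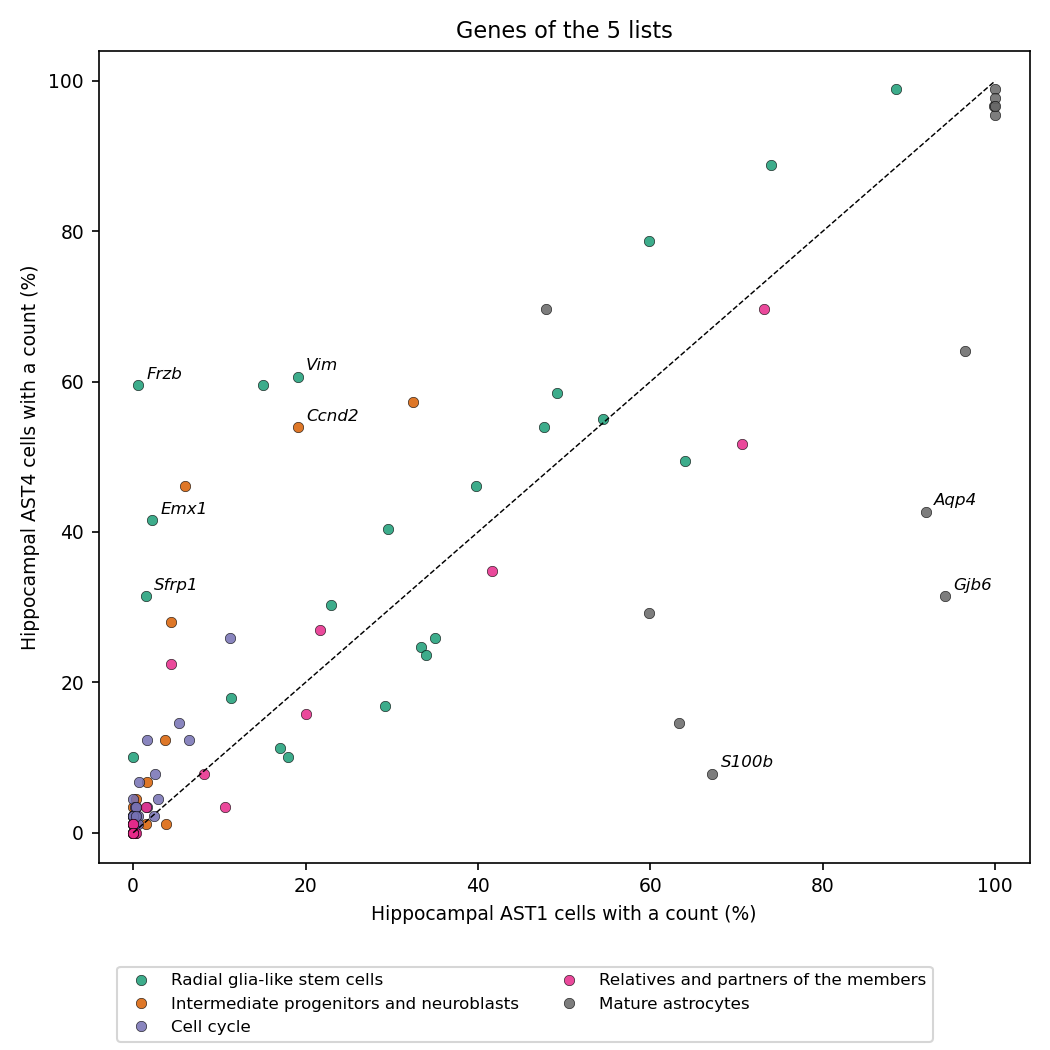
Percentage of hippocampal AST1 cells (horizontal axis) and of hippocampal AST4 cells (vertical axis) with at least 1 count, for genes of 5 lists; each point is a gene and the dashed line marks equal shares. *Frzb*, *Emx1* and *Sfrp1* stand at the left with 31.5% to 59.6% of AST4 cells, *Vim* and *Ccnd2* next to them, and *Aqp4*, *Gjb6* and *S100b* far below the line (genes written out were chosen after their values were seen). *Frzb* and *Emx1* were not called in the comparison of AST4 (adjusted p = 0.0818 and 0.371, edgeR).

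Genes most like each member over the 12 sums were ranked by Pearson's r of log2(CPM + 1), among 7623 genes found in at least 10% of hippocampal AST4 cells. These values describe 12 sums that share suspensions, and they carry no test. AST4 supplies 2 of the 12 sums, and *Lpar1*, *Tfap2c* and *Riiad1* are low in the others. For these members a high r mostly repeats that a gene is high in AST4. *Hopx* was followed most closely by *S100a10* (r = 0.971) and *Cd9* (0.969), a calcium-binding family member and a tetraspanin found in 53.9% and 94.4% of AST4 cells. *Thrsp* was followed by *Fras1* (0.964) and *St8sia2* (0.958), the latter a polysialyltransferase, and *Fabp7* by *Tuba1a* (0.921), a tubulin, and *Cct6a* (0.918), a chaperonin subunit. *Lpar1* was followed by *Bex1* (0.974) and *Rpl3-ps2* (0.971), a pseudogene that can share reads with its parent and is uncertain, *Tfap2c* by the Wnt ligand *Wnt8b* (0.979) and *Gm10282* (0.974), and *Riiad1* by *Emx1* (0.963), a transcription factor of the dorsal forebrain, and *Nxn* (0.960). *Rpl3-ps2* stood at only 0.87 and 0.92 CPM in AST4 and at 0.20 and 0.25 CPM in hippocampal AST1. *Sox11* and *Sox4* had weaker matches, *Osbpl11* (0.854) and *Selenoi* (0.842) for *Sox11* and *Fam171b* (0.879) and *Wdr17* (0.821) for *Sox4*. *Wnt8b* stood at 55.2 and 49.05 CPM in AST4, at 0.727 and 0 in hippocampal AST1 and at 0 in hippocampal AST3, and was found in 14.6% of AST4 cells.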

How the data were processed

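Single cells of mouse cortex and hippocampus were sequenced by Smart-seq2. The authors checked reads with FastQC 0.11.4, mapped them with STAR 2.5.2b to GRCm38.p5 with GENCODE and ERCC sequences, and ran HTSeq on the unique ones. What they deposited are raw counts, 1 file a cell, without scaling or pooling. Reads assigned to no gene feature, which can include reads in introns (median 12.2%), and reads on several genes (4.80%) were left out of library sizes. These percentages are of such reads and the gene counts together. The 92 ERCC sequences were left out too. The authors typed the cells by clustering these counts, and their list was used as given. The copy used here lacks 33 cells, all of 1 plate of Cortex 1, and 15 more carry no type. Of a table of the same counts, 5 columns were compared with the files, with equal totals and members in the 4 cells held by both, and 1 mural cell was read from it; 2026 columns were not used.

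Found means at least 1 count. Counts were summed per subtype and suspension, with at least 20 cells, which leaves 12 sums. They were fitted in edgeR 4.0.16 (R 4.3.3): TMM, filterByExpr, robust quasi-likelihood fit with 6 groups, no block, Benjamini-Hochberg adjustment over all genes, threshold 0.05, two-sided. The standard error is the log2 fold change over the root of F. Suspensions are the replicates, and p values measure the spread between them. Sums of 1 suspension share animals; the deviations of same-suspension sums correlated between -0.0281 and 0.0113, so the block was an alternative. Wilson intervals and limits of 3 cells cover counting error only. No fold against sums at 0 is given, since reads without molecular tags are not independent molecules. Alternatives were DESeq2 1.42.0, its size factors, no filter, at least 5 cells, thinning to 500000 counts, no cells with other types' markers, each suspension left out, the block, and other reference subtypes. On simulated sums the fit made few false calls and missed most changed genes. Other work used Python 3.11.15 with pandas 2.3.3, numpy 2.4.6, scipy 1.17.1 and matplotlib 3.10.9. Promoters came from RefSeq.

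The members and lists were chosen with earlier results of these data known. Named beside the members are up to 4 called genes of each list by adjusted p, and the 2 genes most like each member. Some genes of the lists are not reported here.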

Additional observations from a re-analysis of the deposited data

How the results depend on the processing

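The percentages of genes called depended on the tool and on the number of sums. For AST4 against hippocampal AST1 and AST3, 5.36% of genes were called, 1.33% with sums of at least 5 cells, 23.4% with DESeq2, and 2.31% to 3.45% when a suspension was left out. With the suspension as replicate block, 3.47% were called and, of the members, *Hopx* was lost, as it also was without the filter, with sums of at least 5 cells and with any suspension left out. For AST2 in cortex (0.0689%), the block left 0, DESeq2 size factors in edgeR gave 0.117%, thinning 0.13%, sums of at least 5 cells 0.0109%, DESeq2 9.03%, and leaving out a suspension 0 to 0. For region in AST1 (0.0053%), no filter gave 0.023%, thinning 0.0226%, sums of at least 5 cells 0, no cells with other markers 0, DESeq2 11.3%, and a suspension left out 0 to 0. For region in AST3 (0.117%), sums of at least 5 cells gave 0.00546%, DESeq2 9.05%, and a suspension left out 0 to 0; DESeq2 size factors moved the calls from 12 higher and 10 lower to 12 and 6. For the difference of the regions (0.0106%), thinning gave 0.0226%, DESeq2 11.3%, and size factors, sums of at least 5 cells, no cells with other markers and any suspension left out 0. At an unadjusted p under 0.05 there were 1356 genes for region in AST1, 1115 in AST3, 1557 for their difference and 1328 for AST2. Members past the threshold numbered 3 in AST4 and 0 in the other comparisons. DESeq2 gave 6 in AST4, 2 in each comparison of region and in their difference, and 4 for AST2; in AST1 no filter and thinning each gave 1 (*Thrsp*). Leaving out a suspension gave 2 to 3 in AST4 and 0 elsewhere. In those fits groups with 1 sum left are assumed to vary like the others. The cause was not tested.

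The region comparisons allow no block, since suspensions are nested in regions. DESeq2 size factors moved the median of all genes by over 0.1 (log2) only for the difference of the regions, from -0.375 to -0.269, and no member changed side. Members per AST4 cell were 3.68 to 3.94 under the other settings and 3.71 to 3.98 with either suspension left out. Pairs found together more often in both suspensions (14, with 4 less often) numbered 9 without cells with other markers, with 4 less often, 11 at 10 counts, with 4, and 13 after thinning, with 3. In a single suspension, which needs no second to show the same, they were 18 to 20, with 8 to 10 less often. At 10 counts, *Lpar1* was found in 40.7%, *Sox4* in 4.4% and *Fabp7* in 86.8% of AST4 cells. No member past the threshold changed sign. Some that missed it did: *Hopx* for region in AST3 went from 0.30 to -0.083 without cells with other markers, *Sox11* for region in AST1 from -0.36 to 0.050 after thinning, and others when a suspension was left out.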

Other observations

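Outside the comparisons above, AST5, the smallest subtype with 26 cells, held on average 1.25 members per cell in 8 cells of Cortex 1, 1.30 in 10 cells of Cortex 2 and 2.33 in 6 cells of Hippocampus 1. In the 6 cells of Hippocampus 1, the highest number was 4. *Hopx* was found in 26.9% of AST5 cells and neither *Lpar1* nor *Tfap2c* in any of the 26, which allows a share of up to 11.5%.

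Mural cells held *Lpar1* in 18 of 135 cells, with a median of 503 counts where found and 73.4 CPM in sum, and *Sox4* in 8 of 135. By suspension the share of *Lpar1* in mural cells was 11.1% of 27 in Cortex 1, 16.7% of 12 in Cortex 2, 14.6% of 48 in Hippocampus 1 and 12.5% of 48 in Hippocampus 2.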
